A study of Mus musculus with 5 samples.

Results

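Liver cells of mice that had gone 16 h or 24 h without food were compared by droplet-based single-cell RNA sequencing. The 2 libraries, 1 at each time, held 13701 hepatocytes of the 50000 barcodes in the 5 libraries of the series, 9125 at 16 h and 4576 at 24 h. Hepatocytes were the barcodes with at least 1000 UMIs (unique molecular identifiers, which count captured RNA molecules), at least 500 genes, 2 to 30% of UMIs from mitochondrially encoded genes and under 2% from hemoglobin genes. The UMIs of these cells were summed in each library and given as CPM, counts scaled to the same total of UMIs from genes other than the mitochondrially encoded ones. Over all 5 libraries 28810 barcodes met this rule.

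All animals were male wild-type C57BL/6J mice on normal chow (lab diet #5053). They had been trained for 3 days to 16 h of fasting overnight and 8 h of feeding by day, and ate chow with 20% sucrose in the drinking water before food and sucrose were removed at 13:00. The 16 h animals were sacrificed at 5:00 and the 24 h animals at 13:00 on the following day, so that 8 more hours of fasting and a different hour of the day cannot be told apart in this comparison. The other libraries, used here as levels only, were fed mice (0 h) and mice fasted for 4 and 8 h. The sources used here do not say how many mice each library came from. With 1 library a side there was no replicate check, no p-value could be given, and every interval below is a 95% interval for counting error alone. Differences are between these 2 libraries. Wherever 2 levels stand together, 16 h comes first.

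Hepatocytes supply glucose to the body during fasting, first from glycogen and then by gluconeogenesis from lactate, glycerol and amino acids, with PEPCK (Pck1) and glucose-6-phosphatase (G6pc) at its controlled steps. As fasting goes on, fatty acids from adipose tissue feed mitochondrial and peroxisomal oxidation and ketone body synthesis, largely under the nuclear receptor PPARα. Hepatocytes near the portal vein and those near the central vein divide this work, and the same cells also secrete most plasma proteins and follow a daily clock.

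The labelled cell type held in both libraries. All 8 hepatocyte markers were abundant, with a summed level of 123833 CPM at 16 h and 120620.0 at 24 h. The 9 endothelial markers summed to 32.3 and 19.1 CPM, the 9 macrophage markers to 6.06 and 4.74, and the 8 stellate and fibroblast markers to 4.50 and 18.9. T and NK cell markers summed to 0.119 and 3.51 CPM and B cell markers to 0.0597 and 2.79. The cholangiocyte list summed to 76.1 and 27.0 CPM, of which Sox9 alone gave 70.3 and 16.6, while Krt19, Krt7 and Epcam were among the 4 markers with 0 UMIs at 16 h.

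The libraries differed in depth per cell and in the barcodes they held. The median hepatocyte had 4391 UMIs at 16 h and 8979 at 24 h, and the 24 h cells fell into a shallow group (1454 cells under 4000 UMIs) and a deep group (2454 cells from 8000 up). Every one of the 10000 barcodes at 24 h passed the UMI and gene minimum, the shallowest kept cell there had 2083 UMIs, and 5400 barcodes (54.0%) were left out for under 2% mitochondrial UMIs. At 16 h, 234 of 9363 (2.50%) were left out for this reason. The barcodes left out at 24 h carried 45700.5 CPM of Gm42418, a predicted gene whose reads include ribosomal RNA sequence, and 11947 CPM of albumin. Within the kept 24 h cells Gm42418 stood at 39837 CPM in the shallow group and 9203 in the deep group. The 2 libraries shared 22 barcode sequences, 5 of them among hepatocytes, and doublets were not called.

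**Figure D1:**
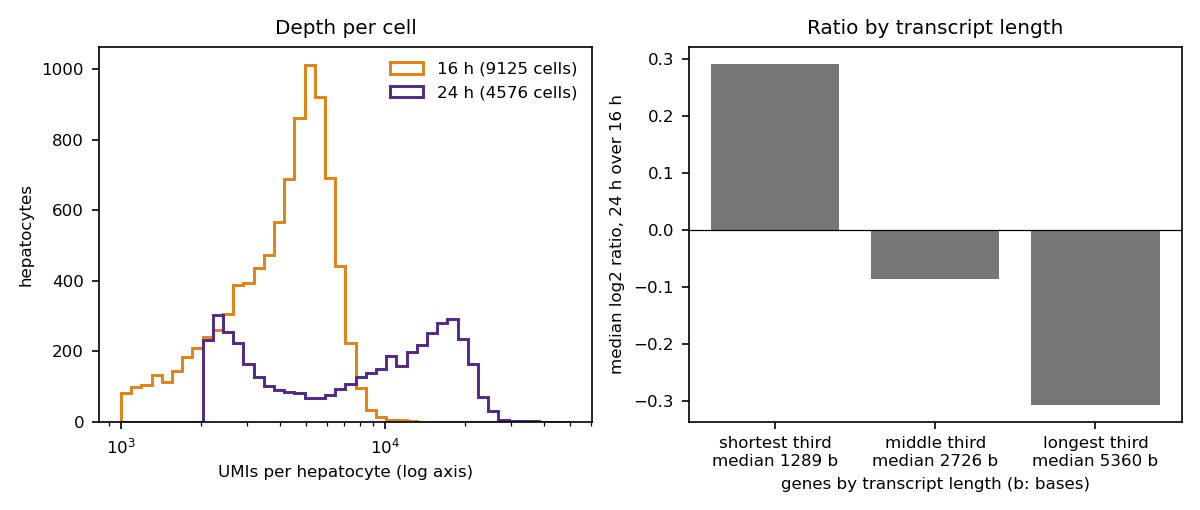
Left, histogram of UMIs per hepatocyte (log axis) in the 16 h library (orange, 9125 cells) and the 24 h library (purple, 4576 cells). The 16 h cells form 1 peak near the median of 4391, and the 24 h cells form a shallow and a deep peak. Right, median log2 ratio of 24 h over 16 h for 3 equal classes of genes by transcript length, 0.29 in the shortest class and -0.31 in the longest.

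The genes of lowest ratio at 24 h held serum amyloid A, other acute-phase proteins, major urinary proteins and pericentral enzymes. Those of highest ratio held loci with ribosomal RNA sequence, a fatty acid hydroxylase (Cyp4a10), an acyl-CoA thioesterase (Acot3) and clock-driven Usp2. Of 2991 genes with 50 CPM or more in either library, 225 (7.52%) were at least 2-fold higher at 24 h and 207 (6.92%) at least 2-fold lower. Members of a list at or above this minimum are called entered, and genes of the comparison are called higher or lower past the 2-fold limit only. "Ratio" and bare signed values below are log2 ratios of CPM, 24 h over 16 h. At least 4-fold differences numbered 13 upward and 50 downward. The median log2 ratio over all genes was -0.08, with 80% of genes between -0.84 and 0.87. The share of higher genes among these calls, 52.1%, depended on the scaling. TMM scaling gave 293 higher and 155 lower genes (65.4% higher) and median-of-ratios scaling 315 and 157 (66.7% higher), with the median of all genes at 0.04 and 0.06.

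**Figure D2:**
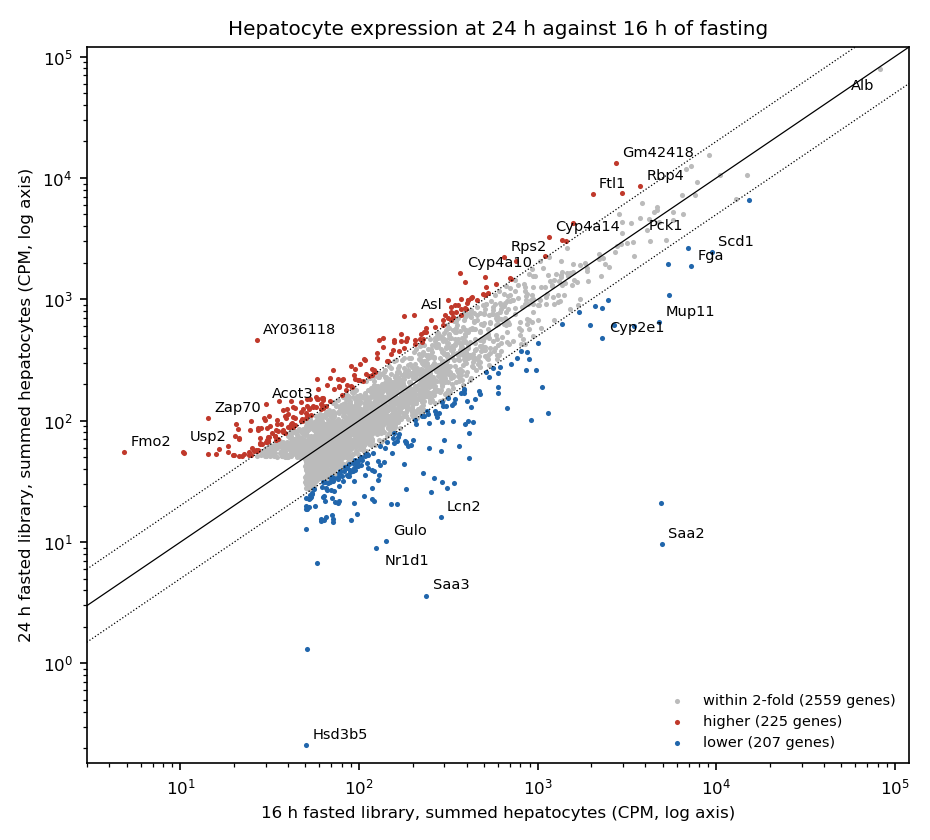
Summed hepatocyte level at 16 h (x, CPM) against 24 h (y, CPM), both log axes, 1 point a gene with 50 CPM or more in either library. The solid line marks equal levels and the dotted lines a 2-fold difference. Saa2, Saa3, Lcn2 and Hsd3b5 lie far below the lines, and AY036118, Fmo2 and Zap70 farthest above.

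The 15 lowest ratios were led by secreted defence proteins. Saa2 (ENSMUSG00000057465, chromosome 7, 46751790 to 46754313, plus strand) measured 217, 1085, 12.8, 4946 and 9.66 CPM at 0, 4, 8, 16 and 24 h, the order used for all strings of 5 levels below. The 95% interval of its ratio ran from -9.15 to -8.85. The neighbouring Saa1 measured 382, 1148, 37.9, 4880.2 and 21.1 CPM, with a ratio of -7.85. Both encode serum amyloid A, an apolipoprotein of high-density lipoprotein made in inflammation, and reads from their near-identical sequences may be split between them. Saa3 (chromosome 7, 46711998 to 46715700, minus strand) measured 238 and 3.62 CPM (-6.04, interval -6.30 to -5.80), and Lcn2, the iron-siderophore binding lipocalin 2, 287 and 16.0 (-4.16, interval -4.29 to -4.05). All 4 were at their highest of the 5 libraries at 16 h.

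Hsd3b5, a steroid-metabolising enzyme that predominates in male mouse liver, had 26.5, 8.15, 32.0, 50.6 and 0.213 CPM, a ratio of -7.89, interval -9.11 to -6.91 that rests on 8 UMIs at 24 h. Fabp5, a fatty acid binding protein, measured 50.9 CPM at 16 h and 1.30 at 24 h (-5.29). Nr1d1, which encodes the clock repressor REV-ERBα, had 14.1, 3.38, 3.22, 125 and 8.94 CPM and a ratio of -3.80, interval -3.97 to -3.64. Gulo, the last enzyme of vitamin C synthesis in mice and a pericentral landmark, stood at 90.1, 86.9, 84.6, 142 and 10.2 CPM (-3.80). The other 7 were Apcs (-3.48), Mup9 (-3.47), Cyp2c29 (-3.31), Oat (-3.27), Slco1a1 (-3.21), Mup17 (-3.19) and Mup18 (-3.11).

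The 15 highest ratios were of another kind. AY036118 had 65.4, 182, 8.37, 26.7 and 458 CPM (ratio 4.10, interval 4.00 to 4.20) and Gm42418 3093, 5804, 5607, 2731 and 13184 CPM (2.27, interval 2.26 to 2.28). These 2 loci overlap on chromosome 17 on opposite strands, at 39847113 to 39848035 and 39846958 to 39848788, and ribosomal RNA reads are known to be assigned to them. Lars2, mitochondrial leucyl-tRNA synthetase, measured 179 CPM at 16 h and 731 at 24 h (2.03). With the 24 h cells of 8000 or more UMIs alone, the ratio of AY036118 was 1.34, that of Lars2 1.54 and that of Gm42418 1.75. In those cells Gm42418 stood at 9203 CPM, against 2731 in all 16 h hepatocytes.

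Fmo2, a flavin-containing monooxygenase, measured 4.83 and 54.7 CPM (ratio 3.50, interval 3.27 to 3.74). Zap70, a kinase of T cell receptor signalling, had 27.7, 59.4, 46.9, 14.3 and 105 CPM (2.88). The defining T cell markers Cd3e and Cd3d stood at 0.0298 CPM each at 16 h and at 0.0798 and 0.452 at 24 h. All 6 T and NK cell markers summed to 0.119 CPM at 16 h and 3.51 at 24 h, with Gzma the highest at 24 h (1.14). Aqp4, a water channel, measured 10.5 CPM at 16 h and 54.7 at 24 h (2.38). Usp2, a clock-driven deubiquitinase, had 42.1, 71.0, 60.6, 20.4 and 93.6 CPM (2.20, interval 2.08 to 2.32). Acot3, a peroxisomal acyl-CoA thioesterase, measured 7.81, 11.6, 6.21, 30.1 and 137 CPM (2.18, interval 2.08 to 2.28) and Cyp4a10, a fatty acid omega-hydroxylase, 410.2, 227, 479.6, 369 and 1641 CPM (2.15, interval 2.12 to 2.18). The others were Gm16573 (2.42), Gstp1 (2.03), Gm5617 (2.01), Tmem134 (2.01), Afmid (1.93) and Gm33543 (1.90).

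The genes among the 5 of highest level in either library, 9 in all, were Gm42418 and 8 secreted proteins. Albumin measured 82747 CPM at 16 h and 78449 at 24 h (ratio -0.08), Apoe 9046 and 15582 CPM (0.78), and Serpina3k, a serine protease inhibitor, 12914 and 6659.9 (-0.96). Transferrin (Trf) had 10427 and 10529 CPM (0.01, interval 0.01 to 0.02). The others were Apoa2, Apoc1 (7253 and 12437 CPM, 0.78), Mup3 and Mup20.

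Acute-phase proteins, which the liver secretes into plasma under cytokines such as interleukin 6, were lower in 12 of 26 entered members and higher in 0, with a median log2 ratio of -0.89, against 6.92% lower and a median of -0.08 over all genes. Their summed level was 49424 CPM at 16 h and 21742 at 24 h. The chains of fibrinogen, the clotting protein, moved alike. Fga measured 3857, 2608, 3019, 7253 and 1874 CPM (ratio -1.95, interval -1.96 to -1.94), Fgb 3108, 3032, 2658, 6906 and 2636 CPM (-1.39) and Fgg 2932, 2642, 2117, 5377 and 1968 CPM (-1.45). All 3 were at their highest at 16 h and lowest at 24 h, although fibrinogen was abundant throughout.

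Apcs, serum amyloid P, measured 51.5, 51.5, 22.7, 309.9 and 27.8 CPM (-3.48, interval -3.57 to -3.38), and C-reactive protein (Crp) 699, 562, 454, 892 and 321 CPM (-1.48). Orm2, an α1-acid glycoprotein, had 121 CPM at 16 h and 21.7 at 24 h (-2.48). Ceruloplasmin (Cp), the copper carrier, measured 2094 and 879 CPM (-1.25) and Lrg1 1366 and 626 (-1.13, but -0.99 by median of ratios). Of the 14 members within 2-fold, 9 were below 0 and 5 above. Itih4, a protease inhibitor-like plasma protein, measured 1681 and 893 CPM (-0.91), complement C3 2956 and 4354 (0.56), the iron hormone hepcidin (Hamp) 492 and 616 (0.33), haptoglobin (Hp) 2331 and 2211 (-0.08) and the constitutive Saa4 139.9 and 189.9 (0.44). Socs3, the feedback inhibitor of STAT3 signalling, was under the 50 CPM minimum at 12.6 and 2.18 CPM. Stat3 itself measured 91.2 and 77.8 CPM (-0.23). In the pericentral, middle and periportal part of each library, a split described further below, the list's median was -0.94, -0.94 and -0.78.

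The promoters of these genes, 250 bases before to 50 bases after the transcription start from RefSeq (GRCm38.p6), were searched on both strands for the STAT palindrome TTCNNNGAA. It was 1 of 8 motifs searched, each in the promoters of 5 of the lists, and it overlaps none of the shown ER stress elements below. A match was present in 7 of 26 members with a window (26.9%) and in 9.55% of 27025 genes. The stretches for the 3 entered matching members with the largest ratios in size are shown 5′ to 3′ along the gene, with the match in capitals, because they belong to lower genes of the list. A match describes the letters and is not a measured binding site.
Apcs, chr1:172895055-172895304 (minus strand): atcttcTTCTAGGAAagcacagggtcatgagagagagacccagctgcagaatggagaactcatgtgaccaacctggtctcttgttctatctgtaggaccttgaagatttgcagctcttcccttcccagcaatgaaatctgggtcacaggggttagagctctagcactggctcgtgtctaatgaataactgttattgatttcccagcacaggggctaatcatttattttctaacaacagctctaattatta
Fga, chr3:83025903-83026152 (plus strand): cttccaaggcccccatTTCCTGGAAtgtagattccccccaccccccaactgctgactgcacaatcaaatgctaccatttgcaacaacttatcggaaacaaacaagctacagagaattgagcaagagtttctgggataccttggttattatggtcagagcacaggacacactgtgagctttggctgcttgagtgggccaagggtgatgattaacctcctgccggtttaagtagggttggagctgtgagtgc
Fgb, chr3:83049864-83050045 (minus strand): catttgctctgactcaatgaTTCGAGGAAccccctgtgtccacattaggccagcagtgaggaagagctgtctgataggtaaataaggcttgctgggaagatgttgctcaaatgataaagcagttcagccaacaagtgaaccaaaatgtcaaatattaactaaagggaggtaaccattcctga
The other 4 members with a match were Itih4 (-0.91), Steap4 (-0.23), Hamp (0.33) and Socs3, under the minimum, so that members with this motif were found on both sides of 0.

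Major urinary proteins, small pheromone carriers that male mouse liver secretes in large amounts under growth hormone, were lower almost throughout. Of 11 members entered, 10 were lower (90.9%, against 6.92% of all genes) and 0 higher (median -2.51), and their summed level was 41116 CPM at 16 h and 18998 at 24 h. Mup11 measured 3073, 1688, 1959.9, 4805 and 653 CPM (ratio -2.88, interval -2.90 to -2.86), Mup7 2528, 650.3, 917, 3467 and 608 CPM (-2.51) and Mup20, which attracts females, 15541, 8089, 15752, 15209.9 and 6548 CPM (-1.22). The member within 2-fold was Mup3, at 14845 and 10618 CPM (-0.48). These genes are near-identical copies in 1 cluster on chromosome 4, so values of single members are uncertain. The sum was 39310.3, 24246, 33386, 41116 and 18998 CPM over the 5 libraries, with 24 h the lowest. In the 3 zone parts the list medians were -2.66, -1.89 and -1.88.

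**Figure D3:**
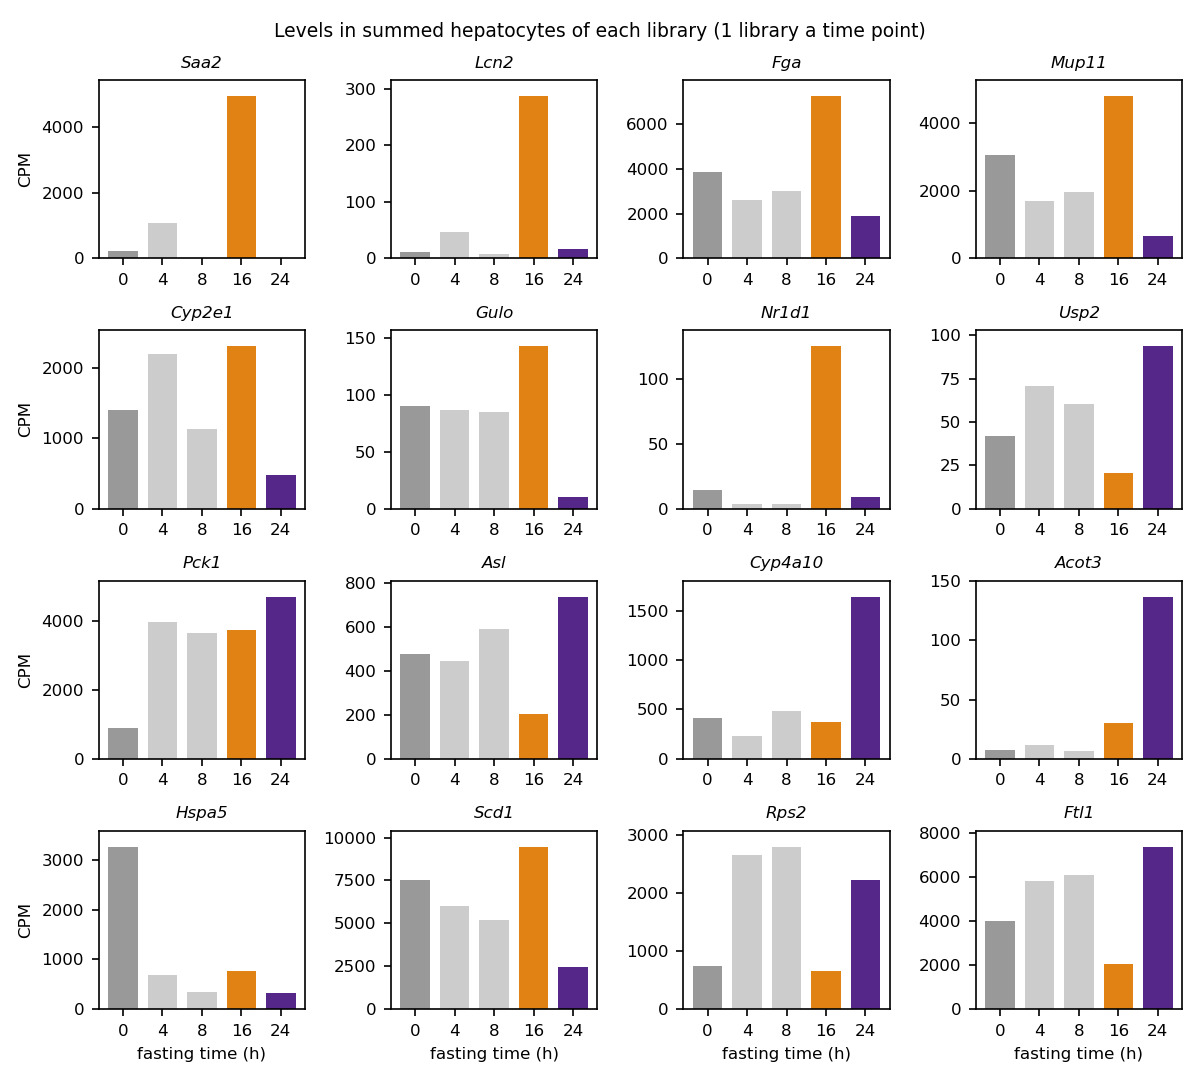
Level (CPM) of 16 genes in summed hepatocytes of the 5 libraries, 1 library a time point, with 16 h in orange and 24 h in purple. Saa2, Lcn2 and Nr1d1 peak at 16 h, Acot3 and Cyp4a10 at 24 h, and Rps2 and Ftl1 have less at 0 and 16 h than at 4, 8 and 24 h.

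Of the 4 core gluconeogenic genes 0 passed 2-fold. Pck1 measured 899, 3983, 3662, 3741 and 4719 CPM, a ratio of 0.34, interval 0.32 to 0.35. G6pc had 398, 339, 729, 784 and 576 CPM (-0.44, interval -0.47 to -0.42), Fbp1, fructose-1,6-bisphosphatase, 1098, 711, 652, 923 and 992 CPM (0.10) and Pcx, pyruvate carboxylase, 243, 231, 280.1, 237 and 300.4 CPM (0.34). Pck1 was far above its fed level in each fasted library. Single cells with 3000 or more UMIs from genes other than the mitochondrially encoded ones numbered 5994 at 16 h and 3280 at 24 h. Scaled to 10000 such UMIs, Pck1 had a median of 37.4 UMIs in these cells at 16 h and 47.9 at 24 h. In 80% of these cells Pck1 lay from 16.5 to 64.3 at 16 h and from 14.9 to 71.4 at 24 h. The 2 distributions overlapped widely. At 24 h Pck1 stood at 2730.1 CPM in the cells under 4000 UMIs and 5028 in those of 8000 or more, and at 16 h at 3335 and 3517. Over the zone parts the ratio of Pck1 was 0.65, 0.27 and 0.12 and that of G6pc -0.58, -0.47 and -0.51.

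The gluconeogenesis list as a whole held 14 entered members, of which 4 were higher (28.6%, against 7.52% of all genes) and 0 lower (6.92%), with a median of 0.30. The higher members move amino groups or glucose-6-phosphate. They were the alanine aminotransferase Gpt2 (379.8, 483, 632, 237 and 578 CPM, ratio 1.28), the aspartate aminotransferases Got1 (121, 555, 1331, 207 and 459 CPM, 1.15) and Got2 (220.2 CPM at 16 h and 475 at 24 h, 1.11), and Slc37a4, the glucose-6-phosphate transporter of the endoplasmic reticulum (99.1 CPM at 16 h and 218 at 24 h, 1.14). With cells thinned to 1000 UMIs, Gpt2 (0.99), Got1 (0.97) and Got2 (0.95) were within 2-fold, which leaves 1 of these calls. That call, Slc37a4, was at 0.68 with the barcodes of under 2% mitochondrial UMIs counted in, so each of the 4 ended under some alternative. Got1 and Gpt2 were still below their 8 h levels at 24 h.

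Of 26 entered genes of amino acid catabolism 3 were higher and 3 lower (11.5% each, near the 7.52% and 6.92% of all genes), with a median of 0.32. Sds, serine dehydratase, measured 127, 271, 509, 157 and 464 CPM (ratio 1.56, interval 1.52 to 1.61), Prodh, proline dehydrogenase, 72.3, 137, 218, 41.4 and 145 CPM (1.81) and Afmid, kynurenine formamidase, 105, 172, 207, 58.4 and 222 CPM (1.93). Lower were Oat, the pericentral ornithine aminotransferase, at 146, 302, 101, 251 and 26.1 CPM (-3.27, interval -3.37 to -3.17), Csad, which makes the taurine precursor hypotaurine, at 107, 180.2, 199.9, 412 and 49.4 CPM (-3.06), and Kynu, kynureninase, at 165 CPM at 16 h and 74.0 at 24 h (-1.16). The enzymes that open tyrosine and tryptophan breakdown stood at similar levels, with Tat at 1364 and 1304 CPM (-0.06) and Tdo2 at 2928 and 2838 (-0.04).

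In the urea cycle, which disposes of the ammonia that amino acid breakdown releases, the 2 cytosolic enzymes that make and cleave argininosuccinate were higher and the others within 2-fold. Asl had 475, 445, 592, 204 and 737 CPM (ratio 1.85, interval 1.82 to 1.89) and Ass1 2485, 3249.9, 5620.4, 1372 and 3085 CPM (1.17, interval 1.15 to 1.19). Both were at their lowest of the 5 libraries at 16 h. Cps1 (3143 and 2915 CPM, -0.11) and Otc (678 and 539 CPM, -0.33), the mitochondrial enzymes, differed little. Of 7 entered members, 2 were higher (28.6%, against 7.52% of all genes) and 0 lower (6.92%).

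Of 20 genes of mitochondrial fatty acid oxidation and ketogenesis 1 was higher (5.00%, near the 7.52% of all genes) and 0 lower (median 0.20). Cpt1a, the gate for fatty acid entry into mitochondria, measured 129, 209, 237, 315 and 439.7 CPM (0.48, interval 0.45 to 0.52). The higher member was Etfb, an electron transfer flavoprotein subunit, at 167 CPM at 16 h and 376 at 24 h (1.17). Its ratio was 0.70 with the 24 h cells of 8000 or more UMIs alone, which ends the call.

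Among 21 entered genes of peroxisomal and omega oxidation and acyl-CoA thioesterases 3 were higher (14.3%, against 7.52% of all genes) and 4 lower (19.0%, against 6.92%), with 14 above 0 and 7 below (median 0.23). Cyp4a14 measured 720.0, 408, 1088, 1153 and 3267 CPM (ratio 1.50, interval 1.49 to 1.52), and with Cyp4a10 and Acot3 it had its highest level of the 5 libraries at 24 h. Lower were Cyp4a12a at 157, 123, 161, 183 and 27.5 CPM (-2.73, interval -2.83 to -2.64) and Cyp4a12b at 50.1 CPM at 16 h and 12.9 at 24 h (-1.96), the male-predominant members of the same cytochrome family, Crot, carnitine octanoyltransferase, at 998 CPM at 16 h and 433 at 24 h (-1.20), and the fatty aldehyde dehydrogenase Aldh3a2 at 87.4 CPM at 16 h and 35.1 at 24 h (-1.32). In the pericentral, middle and periportal part the ratios of Aldh3a2 were -1.18, -0.07 and -0.11. Only the pericentral part was past 2-fold, and the summed ratio of -1.32 lay below those of all 3 parts. Ehhadh (211 and 270.3 CPM, 0.36), a classic PPARα target, was within 2-fold. The Cyp4a and Acot families each hold close copies, and 3′ reads may be split among them.

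The zone values of these genes differed. For Cyp4a10 the ratio was 1.53, 2.47 and 2.81 in the pericentral, middle and periportal part, for Cyp4a14 0.89, 1.69 and 2.11 and for Acot3 2.02, 2.19 and 2.41. At 16 h Cyp4a14 stood at 1746 CPM in the pericentral and 745 in the periportal part. At 24 h it stood at 3227 and 3209, near even over the parts.

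Among fasting regulators and hormones 1 of 15 was higher (6.67%, near the 7.52% of all genes) and 3 lower (20.0%, against 6.92%), with a median of -0.02 that TMM scaling moved to 0.09. Foxo1, a transcription factor restrained by insulin, measured 29.6, 80.8, 96.0, 34.3 and 70.0 CPM (1.03, and 0.77 with the low-mitochondrial barcodes counted in). Lower were Angptl8, a feeding-induced inhibitor of lipoprotein lipase, at 499, 35.4, 23.9, 128 and 32.5 CPM (-1.98, interval -2.08 to -1.89), Klf10 at 117, 24.2, 25.1, 76.0 and 20.9 CPM (-1.86) and Nr0b2, the bile acid-induced repressor SHP, at 69.8 CPM at 16 h and 33.4 at 24 h (-1.06, but -0.95 under TMM). Angptl4, a fasting-induced inhibitor of the same lipase, had 9.34, 130.3, 333, 79.2 and 136 CPM (0.78). Ppara measured 95.8 and 134 CPM (0.49), Igfbp1 21.4, 276, 276, 117 and 62.6 CPM (-0.91) and Igf1 1264 and 1621 (0.36). The starvation hormone Fgf21 was under the minimum in both libraries, at 6.27, 0.417, 2.99, 18.7 and 3.73 CPM over the 5 libraries.

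Of 10 lipid droplet and lipolysis genes 1 (10.0%, near the 7.52% of all genes) was higher, the phosphatidate phosphatase Lpin1 at 181, 937, 1568, 126 and 363 CPM (1.53, interval 1.48 to 1.58), and 0 lower. The droplet coat Plin2 measured 420.0 CPM at 16 h and 217 at 24 h (-0.95), and G0s2, an inhibitor of lipolysis, 129.6 and 249 CPM (0.94). Among 14 lipogenic and glycolytic genes 1 was higher (7.14%) and 3 lower (21.4%, against 6.92% of all genes), with a median of -0.19. The stearoyl-CoA desaturase Scd1 measured 7548, 5996, 5168, 9445 and 2452 CPM (-1.95, interval -1.96 to -1.93), Me1, malic enzyme, 333 CPM at 16 h and 135 at 24 h (-1.30) and the elongase Elovl5 388 CPM at 16 h and 178 at 24 h (-1.12, but -0.99 by median of ratios). The fatty acid synthase Fasn, high when fed, stood at 2021, 83.1, 93.8, 126 and 114 CPM (-0.16), and the citrate lyase Acly at 1860.0, 429.7, 161, 224 and 174 CPM (-0.36). Thrsp, a carbohydrate-responsive lipogenic gene, was higher at 24 h, with 3592, 1108, 458, 137 and 477 CPM (1.80, interval 1.75 to 1.85).

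Cholesterol synthesis and uptake leaned lower. Of 18 members 4 were lower (22.2%, against 6.92% of all genes) and 0 higher (median -0.65). They were Nsdhl (90.1 and 38.5 CPM, -1.23), Hsd17b7 (225 and 108 CPM, -1.05) and Sqle (109 and 52.8 CPM, -1.05), which act late in the pathway, and Insig1, which holds back its transcription factors, at 1177, 419.8, 182, 562 and 272 CPM (-1.04). With TMM scaling Hsd17b7, Sqle and Insig1, at -0.93 each, were no longer past 2-fold.

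In bile acid synthesis and transport 5 of 16 members were lower (31.2%, against 6.92% of all genes) and 1 higher (6.25%, near the 7.52% of all genes), with a median of -0.37. Lower were the uptake carriers Slco1a1, at 283, 172, 291, 289.7 and 31.2 CPM (-3.21, interval -3.30 to -3.13), and Slco1b2, at 1707 CPM at 16 h and 787 at 24 h (-1.12, but -0.98 by median of ratios), and the enzymes Cyp2c70 (364 and 62.0 CPM, -2.55), which makes muricholic acids, Hsd3b7 (414 and 78.8 CPM, -2.39) and Cyp7b1 (196 and 62.5 CPM, -1.65). The reductase Akr1d1 was higher (177 and 397 CPM, 1.16, but 0.92 with cells thinned to 1000 UMIs). Cyp7a1, the rate-limiting enzyme, was under the minimum at 26.9 and 33.5 CPM, and Cyp8b1, which sets the share of cholic acid, measured 163 and 252 (0.63).

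Chaperones and enzymes of the endoplasmic reticulum (ER), where secreted proteins fold, were lower in 6 of 20 members and higher in 0, against 6.92% and 7.52% of all genes (median -0.58). Hyou1 measured 328, 64.8, 36.7, 94.2 and 21.0 CPM (ratio -2.17, interval -2.28 to -2.05), the disulfide isomerase Pdia4 937, 117, 57.2, 298 and 68.7 CPM (-2.12, interval -2.18 to -2.05) and the main luminal chaperone Hspa5, also called BiP, 3266, 689, 348, 765 and 332 CPM (-1.21, interval -1.24 to -1.18). Manf (152 and 54.6 CPM, -1.48), Dnajb9 (182 and 66.4 CPM, -1.46) and Xbp1, a transcription factor of the unfolded protein response (315 and 155 CPM, -1.03, and -0.91 with TMM scaling), were the others. For Hyou1, Pdia4 and Hspa5 the 0 h level was the highest of the 5 libraries, and for Hyou1 and Hspa5 the 24 h level was the lowest. Zone medians of the list were -0.71, -0.55 and -0.55, and 24 h cells of 8000 or more UMIs alone gave -0.55 for the ER folding and unfolded protein response list.

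The ER stress element, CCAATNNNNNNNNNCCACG, is the sequence through which ATF6, a factor of the unfolded protein response, acts. On either strand of the same promoter windows it was found in 9 of 21 list members with a window (42.9%) and in 37 of 27025 genes (0.137%). These 9 had ratios below 0, as did 17 of the 20 entered members of the list. They were Hspa5, Hsp90b1 (-0.58), Calr (-0.50), Canx (-0.78), Pdia6 (-0.78) and Dnajc3 (-0.17), of which only Hspa5 was past 2-fold, and Creld2, Syvn1 and Derl3 under the minimum. The stretches of the 3 entered matching members with the largest ratios in size are shown, with the element in capitals.
Hspa5, chr2:34771940-34772089 (plus strand): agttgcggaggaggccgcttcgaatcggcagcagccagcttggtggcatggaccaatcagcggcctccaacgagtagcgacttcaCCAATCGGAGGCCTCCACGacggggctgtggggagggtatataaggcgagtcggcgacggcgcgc
Canx, chr11:50325674-50325838 (minus strand): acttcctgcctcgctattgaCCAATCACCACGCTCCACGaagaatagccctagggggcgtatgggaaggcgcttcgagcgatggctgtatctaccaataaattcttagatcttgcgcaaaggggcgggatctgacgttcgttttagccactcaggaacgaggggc
Pdia6, chr12:17266439-17266588 (plus strand): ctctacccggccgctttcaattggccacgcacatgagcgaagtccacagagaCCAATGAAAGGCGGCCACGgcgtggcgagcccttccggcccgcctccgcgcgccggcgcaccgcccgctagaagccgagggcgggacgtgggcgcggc
In these the element lies 47 to 65, 127 to 145 and 80 to 98 bases before the start. The level of Canx measured 591 and 345 CPM and that of Pdia6 213 and 125. Among the other searches, the E-box CACGTG was found in 5 of 17 clock list members with a window (29.4%, against 8.09% of all genes). The heat shock element was found in 4 of 13 heat shock members (30.8%, against 0.662%). DR1, 2 copies of AGGTCA 1 base apart, was found in 0 of 19 members of the peroxisomal and omega oxidation list (0.0481% of all genes).

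Of 7 heat shock genes entered, 0 were higher and 0 lower (median 0.19, and -0.24 with a minimum of 10 CPM), with the constitutive chaperone Hspa8 at 348 and 579 CPM (0.73) and the mitochondrial pair Hspd1 and Hspe1 at 0.40 and 0.63. Among the integrated stress response genes only Atf4 (87.2 and 73.2 CPM, -0.25) and Atf5 (219 and 260.0 CPM, 0.25) entered. Immediate-early genes, which respond within minutes to stimuli and to tissue dissociation, were lower in 4 of 6 members (66.7%, against 6.92% of all genes), with Egr1 at 39.1, 94.1, 17.8, 150.1 and 20.5 CPM (-2.87, interval -2.98 to -2.76), Junb at 69.3, 44.5, 14.5, 107 and 23.7 CPM (-2.17), Dusp1 at 184 CPM at 16 h and 65.1 at 24 h (-1.50) and Jun at 65.6 CPM at 16 h and 27.8 at 24 h (-1.24). The part of cell isolation in their levels was not tested.

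Clock genes were sampled at different hours of the day, 5:00 and 13:00. Of 9 entered, 1 was higher (11.1%, near the 7.52% of all genes), Usp2, and 2 lower (22.2%, against 6.92%), Nr1d1 and Bhlhe40, a transcriptional repressor, at 363, 114, 68.0, 246 and 95.6 CPM (-1.37, interval -1.42 to -1.31). The other REV-ERB, Nr1d2, measured 68.4, 39.0, 18.5, 102 and 71.9 CPM (-0.50), the output factor Dbp 55.3, 6.17, 1.92, 79.7 and 62.9 CPM (-0.34), Tef 116, 77.5, 42.3, 85.1 and 128 CPM (0.59) and Clock 64.6 and 36.8 CPM (-0.81). The period and cryptochrome genes, the repressing arm of the loop, were under the minimum. Per1 stood at 9.61, 18.4, 28.4, 11.9 and 27.0 CPM, Per2 at 57.7, 9.09, 1.63, 9.43 and 17.9 CPM, Per3 at 28.9, 11.9, 2.37, 19.7 and 37.8 CPM and Cry1 at 44.7, 78.3, 53.7, 16.3 and 28.3 CPM, each with more at 24 h than at 16 h. The activator Arntl, also called BMAL1, stood at 5.50, 32.1, 30.5, 6.35 and 6.71 CPM. The fed mice were sacrificed at 13:00 too, the hour of the 24 h mice.

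Glucocorticoid receptor targets, which cortisol-like hormones switch on in fasting, had 2 of 8 members higher (all genes, 7.52%) and 0 lower, with 4 above 0, 4 below and a median of 0.04. Fkbp5, the receptor's co-chaperone, measured 22.1, 134, 288, 37.7 and 122 CPM (1.69, interval 1.60 to 1.78), and Lpin1 is given above. Both were higher still at 8 h. Under the minimum, Zbtb16 stood at 4.21, 61.5, 39.4, 4.68 and 23.6 CPM. The metallothioneins Mt1 (111, 5308, 6149, 1452 and 1639.7 CPM, 0.18) and Mt2 (27.1, 1839, 1716, 505 and 405 CPM, -0.32), which bind zinc and copper, were far above their fed level in both libraries, and of the 4 entered genes for metallothioneins and zinc transport 0 passed 2-fold. In the growth arrest list only Btg1 entered (248 and 156 CPM, -0.67), and the cell cycle inhibitor Cdkn1a was under the minimum at 2.59, 79.2, 264, 1.73 and 7.34 CPM.

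Several pericentral enzymes were lower and several periportal ones higher at 24 h. Of 10 entered pericentral landmarks 5 were lower and 0 higher (median -1.46). Of 12 periportal landmarks 3 were higher and 1 (8.33%) lower (median 0.62). Over all genes 7.52% were higher and 6.92% lower. The ethanol-oxidising Cyp2e1 measured 1404, 2197, 1129.6, 2304 and 478 CPM (ratio -2.27, interval -2.29 to -2.25), Cyp2c29 840.1, 856, 431, 1146 and 116 CPM (-3.31), Cyp1a2 121, 193, 146, 163 and 20.7 CPM (-2.97) and Rgn, regucalcin, 282, 475, 292, 408 and 100.3 CPM (-2.02). With cells of 2 to 15% mitochondrial UMIs only, Cyp2e1 was at -3.29, Cyp2c29 at -4.25 and Cyp1a2 at -4.01, so the cell filter moved these values far more than counting error. Glutamine synthetase (Glul), confined to the cells next to the central vein, had 202, 89.4, 65.8, 98.0 and 52.8 CPM (-0.89). The Wnt-dependent Axin2 and Tbx3, near the central vein, were under the minimum, Axin2 at 2.95 and 0.319 CPM and Tbx3 at 10.8 and 1.09. On the portal side Sds and Ass1, given above, and Aldh1b1 (27.2 CPM at 16 h and 84.0 at 24 h, 1.63) were higher, Cyp2f2 measured 1573 and 1673 CPM (0.09), and Cdh1, E-cadherin, was lower (52.7 and 22.8 CPM, -1.21). Whether the 24 h library held fewer pericentral cells or less of these RNAs in each cannot be told apart from sums. Deep cells also weigh more in a sum. The pericentral part of the split below gave 10354445 of 33521626 UMIs of genes other than the mitochondrially encoded ones at 16 h. At 24 h it gave 8091691 of 37579178. The part of this weighting in the summed ratios was not tested.

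For a description of levels along the lobule, each library was split into 3 equal parts by a zone score, the mean z-score of the periportal minus that of the pericentral landmarks, so each part is a range of that score and not a measured position, and its number of cells is fixed by the split. Fewer pericentral cells and less pericentral RNA in each cell therefore cannot be told apart by these parts. Landmark values within the parts are shaped by the score and are given as a description. Cyp2e1 stood at 6842 CPM in the pericentral part at 16 h and 2065 at 24 h, and Gulo at 413 and 32.6. In the same part Sds stood at 25.3 CPM at 16 h and 461 at 24 h. In the periportal part Sds measured 276 and 452, so Sds was nearly even over the score at 24 h. Depth moved with the score. The pericentral part had a median of 3821 UMIs per cell at 16 h and 3384 at 24 h, the periportal part 4715 and 14168, and 56.6% of pericentral cells at 24 h had under 4000 UMIs. The part of depth in the zone values was not tested.

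**Figure D4:**
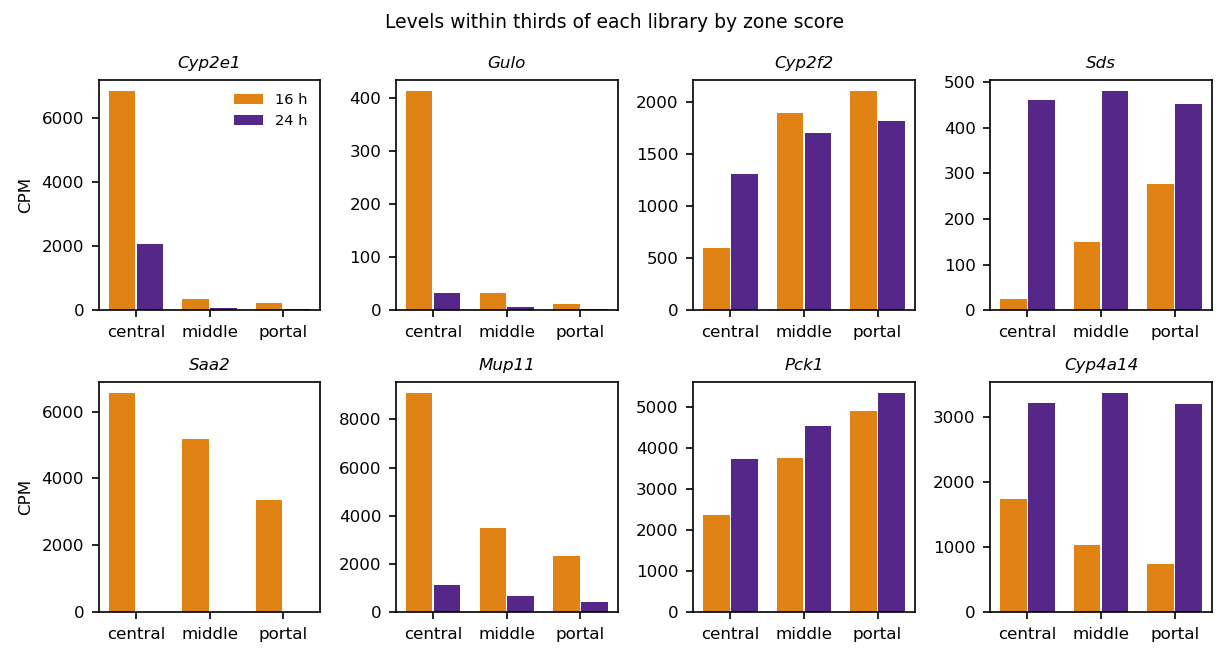
Level (CPM) of 8 genes in the pericentral (central), middle and periportal (portal) part of the 16 h (orange) and 24 h (purple) hepatocytes. Cyp2e1 and Gulo are lower in the pericentral part at 24 h, Sds and Cyp4a14 are near even over the parts at 24 h, and Saa2 and Mup11 are lower in all 3 parts.

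Most ribosomal protein genes had ratios above 0. Of 80 members 25 were higher (31.2%, against 7.52% of all genes) and 0 lower (6.92%), 76 had a ratio above 0, and the median was 0.82. Rps2 measured 743, 2648, 2785, 647 and 2216 CPM (ratio 1.77, interval 1.75 to 1.80), Rps18 412, 1669, 1515, 509 and 1514 CPM (1.57) and Rpl19 417, 1126, 1031, 374 and 1014 CPM (1.44). Nuclear-encoded subunits of oxidative phosphorylation, the respiratory chain and ATP synthase, were higher in 13 of 75 (17.3%, likewise against 7.52%) and lower in 0 (median 0.60). Complex I subunit Ndufb10 measured 121, 198, 209.9, 71.0 and 261 CPM (1.88, interval 1.81 to 1.94) and Ndufb9 316 CPM at 16 h and 993 at 24 h (1.65). With the 24 h cells of 8000 or more UMIs alone, several of the 13 calls ended. They were Atp5g1 (0.96), Ndufb5 (0.96), Ndufb7 (0.79), Ndufb11 (0.91), Ndufs3 (0.99) and Ndufv2 (0.69). Proteasome subunits, which break down tagged proteins, had 1 of 25 lower (4.00%, near the 6.92% of all genes; Psmd14, -1.11, and -0.99 with TMM scaling), 0 higher and a median of -0.11. That median crossed 0 in 7 of 20 alternatives, up to 0.62 with the low-mitochondrial barcodes counted in and 0.01 with TMM scaling.

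The ratio was lower in classes of longer transcripts. The class of 984 genes with the shortest transcripts (median 1289 bases) held 144 higher and 57 lower genes with a median ratio of 0.29, and the longest class held 25 and 71 with -0.31. Ribosomal protein transcripts had a median of 925.5 bases and oxidative phosphorylation transcripts 875. The major urinary proteins, at 927 bases, were as short and were lower. The summed ribosomal protein level was 36987, 89654, 82247, 42244 and 69223 CPM over the libraries. The median UMIs per hepatocyte were 5408, 12097, 15005, 4391 and 8979, so that the sum was largest in the 3 libraries of deepest cells. With 24 h cells of 8000 or more UMIs alone the median of the cytosolic ribosomal proteins was 0.79, and with all cells of both libraries thinned to 1000 UMIs 0.96. The part of cell or library quality in this shift was not tested.

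Apolipoproteins, the protein shell of lipoproteins, had 10 of 14 members above 0 and 4 below, with a median of 0.76. Past 2-fold was 1 (7.14%, near the 7.52% of all genes), and the sum was 41014 CPM at 16 h and 62934 at 24 h. Apoa4, which takes part in triglyceride export, measured 148, 134, 154, 125 and 329 CPM (1.39, interval 1.34 to 1.44). Its ratio was 0.90 with the low-mitochondrial barcodes counted in, which ends the call. Apoc3 measured 2848 and 5034 CPM (0.82) and Apoa2 6743 and 11932 (0.82). Apob, the large structural protein, measured 4216 and 4554 (0.11), and its partner Mttp 286 and 209 (-0.45). The transcripts of the list had a median length of 1113 bases.

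Ferritin, the iron store, was higher in both chains, Ftl1 at 3995, 5809, 6102, 2029 and 7372 CPM (ratio 1.86, interval 1.85 to 1.87) and Fth1 at 3714, 5612, 5904, 2981 and 7515 CPM (1.33, interval 1.32 to 1.34). Of the 6 entered genes of iron handling these 2 were higher (33.3%, against 7.52% of all genes) and 0 lower (6.92%), and the iron exporter Slc40a1 measured 304 and 207 CPM (-0.56). Methionine and one-carbon metabolism was higher in 5 of 16 members (31.2%, against 7.52% of all genes) and lower in 0 (median 0.41). The higher members belong to methyl group turnover, namely Bhmt, which remakes methionine from homocysteine with betaine (813, 3061, 4566, 1568 and 4219 CPM, 1.43, interval 1.41 to 1.44), Nnmt (106, 213, 253, 76.0 and 222 CPM, 1.54), Sardh (325 CPM at 16 h and 782 at 24 h, 1.27), Gnmt, which consumes S-adenosylmethionine (1097 CPM at 16 h and 2269.6 at 24 h, 1.05), and Ahcy (224 CPM at 16 h and 449 at 24 h). With the 24 h cells of 8000 or more UMIs alone Gnmt was at 0.70, within 2-fold, and Ahcy, just past the limit, fell within it under 7 of 20 alternatives (0.89 with cells thinned to 1000 UMIs). Mat1a, which makes S-adenosylmethionine, measured 3819.9 and 6169 CPM (0.69).

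Of 24 enzymes of drug metabolism 3 were higher (12.5%) and 1 lower (4.17%), near the 7.52% and 6.92% of all genes, with a median of 0.26 that was -0.10 with the low-mitochondrial barcodes counted in. Por, the reductase that feeds electrons to microsomal cytochromes P450, measured 159, 400.2, 738, 171 and 516 CPM (1.59, interval 1.55 to 1.63), the glutathione transferase Gstp1 44.1, 147, 293, 21.0 and 85.4 CPM (2.03, interval 1.91 to 2.15) and Gsta4 26.6 CPM at 16 h and 57.1 at 24 h (1.10, but 0.67 with the 24 h cells of 8000 or more UMIs alone). Cyp2a5 was lower (108 CPM at 16 h and 35.6 at 24 h, -1.60). The steroid-inducible Cyp3a11 measured 4678 and 5748 CPM (0.30).

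Of 27 coagulation and complement genes 3 were lower (11.1%, near the 6.92% of all genes) and 0 higher, with a median of -0.25. The 3 encode parts of the complement membrane attack complex, with C6 at 83.7, 76.2, 151, 90.6 and 15.2 CPM (-2.57, interval -2.70 to -2.44), C8a at 476 CPM at 16 h and 167 at 24 h (-1.51) and C9 at 704 CPM at 16 h and 295 at 24 h (-1.26). C8b, of the same complex, was within 2-fold (207 and 119 CPM, -0.80). Prothrombin (F2) measured 1303 and 1095 CPM (-0.25).

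Of 7 genes of glycogen metabolism 1 was higher and 1 lower (14.3% each, against 7.52% and 6.92% of all genes), both glycogen-targeting subunits of protein phosphatase 1, Ppp1r3b at 671, 340.3, 278, 123 and 254 CPM (1.04, and 0.76 with cells thinned to 1000 UMIs) and Ppp1r3c at 39.7, 72.3, 255, 80.6 and 34.7 CPM (-1.22). Liver glycogen synthase (Gys2) measured 141 and 133 CPM (-0.09) and the phosphorylase Pygl 252 and 192 (-0.39). Of 18 autophagy and lysosome genes 0 passed 2-fold in either direction, with the autophagosome proteins Map1lc3b at 149 and 209 CPM (0.49) and Gabarapl1 at 362 and 213 (-0.77) on opposite sides of 0.

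**Figure D5:**
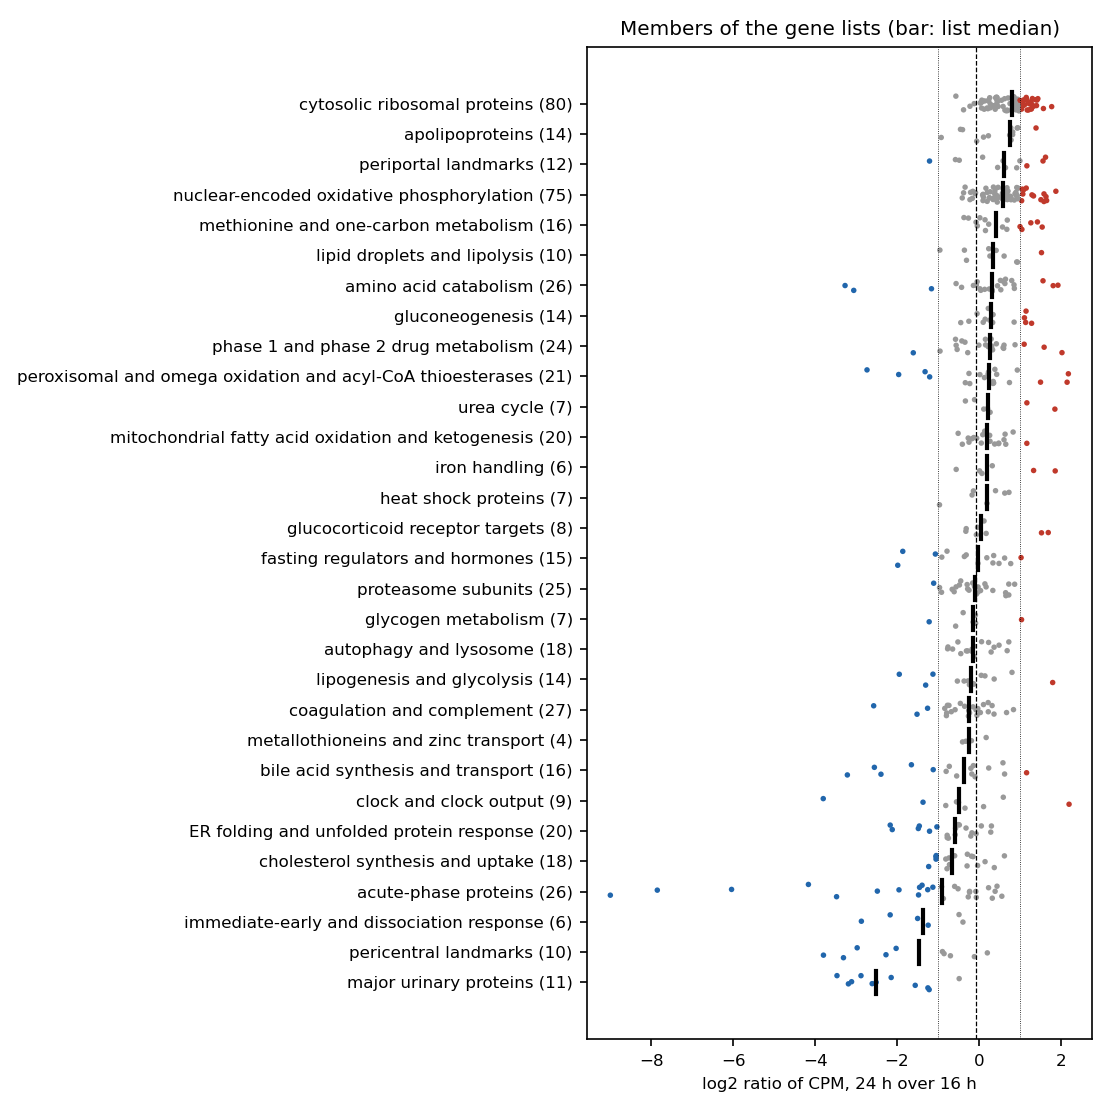
Log2 ratio of CPM, 24 h over 16 h, for the entered members of each gene list with 4 or more (their number in parentheses), 1 point a gene, red at least 2-fold higher and blue at least 2-fold lower. Black bars are list medians and the dashed line is the median of all 2991 genes, -0.08. The medians run from -2.51 in the major urinary proteins to 0.82 in the ribosomal proteins.

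Mitochondrially encoded genes, given here as CPM of all UMIs, had ratios on both sides of 0, with 8 of 13 above it. mt-Atp6 measured 20471 at 16 h and 31827 at 24 h (log2 ratio 0.64) and mt-Co2 12242 and 18519.7 (0.60). mt-Atp8, which shares a transcript with mt-Atp6, measured 4310.4 and 1683 (-1.36). The mitochondrial share of cells was used to select them, so its total is no result here.

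Shares of cells with a UMI were compared after thinning each cell to 1000 UMIs, which left out 122 of the 16 h cells and 0 at 24 h. Cyp4a10 was found in 27.2% of cells at 16 h (exact Clopper-Pearson interval 26.3 to 28.2) and 62.6% at 24 h (61.2 to 64.0), and unthinned in 57.1 and 86.3%. Lcn2 was found in 20.6% (19.8 to 21.5) and 1.51% (1.18 to 1.90), unthinned in 43.8 and 9.81%. As background served barcodes with 4 or more endothelial markers, 56 at 16 h and 40 at 24 h, with a median depth of 1306.5 and 3717.5 UMIs. Among them Cyp4a10 was found in 5.36 and 32.5% and Lcn2 in 8.93% (2.96 to 19.6) and 0 of 40, which allows up to 8.81%. Of these barcodes 54 and 30 also met the hepatocyte rule, so their shares hold hepatocyte RNA as well. For Saa2 the 16 h share was 65.4% in hepatocytes (unthinned 79.2%) and 62.5% (48.5 to 75.1) in the endothelial-marker barcodes, so the share of hepatocytes that express Saa2 cannot be read from it. At 24 h Saa2 was found in 0.830% of hepatocytes, unthinned 2.25%.

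Over the 5 libraries 1 order prevailed among the called genes, given as a description because it shares the 16 h and 24 h libraries with the calls. In 182 of the 225 higher genes (80.9%) the levels at 4, 8 and 24 h all lay above those at 0 and 16 h, as they did in 23.3% of all 2991 genes and in 45.3% of the genes with a ratio above 0 that were within 2-fold. In 148 of the 207 lower genes (71.5%) they all lay below, as in 27.0% of all genes and 46.4% of those below 0 and within 2-fold. The 4, 8 and 24 h libraries were also those of the deepest cells, with median UMIs of 12097, 15005 and 8979 against 5408 and 4391 at 0 and 16 h, and the part of depth in this order was not tested. The 24 h level was the highest of the 5 in 130 higher genes (57.8%, against 18.7% of all genes and 37.7% of those above 0 and within 2-fold), Cyp4a10, Cyp4a14, Acot3, Usp2 and Asl among them, and the 16 h level the lowest in 162 (72.0%, against 23.3% and 47.1%). The 24 h level was the lowest of the 5 in 114 lower genes (55.1%, against 18.4% of all genes and 30.7% of those below 0 and within 2-fold), among them the fibrinogen genes, Scd1, Hyou1, Cyp2e1 and Gulo, and the 16 h level the highest in 127 (61.4%, against 29.2% and 52.5%), as for Saa2, Saa3, Lcn2, Nr1d1 and Csad.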

How the data were processed

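UMI counts per gene and barcode, not normalized, were deposited by the authors as 1 matrix of 32285 genes and 50000 barcodes, made with Cell Ranger 6.0.1 on build mm10, both per the submitters' processing notes, and 10x Genomics 3' v3 kits were used per the labels' protocols. A deposited table gave each barcode's time label. The sources used here name neither the annotation version nor any removal of doublets, and none was run. Positions are from GENCODE M21 (32158 of 32285 IDs matched), promoters from RefSeq GRCm38.p6. The number of columns left unused was 0.

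Hepatocyte UMIs were summed by library: 33521626 UMIs of genes other than the mitochondrially encoded ones at 16 h and 37579178 at 24 h. Genes entered with 50 CPM in either library and were called at 2-fold. Intervals (95%) are exact Poisson for CPM, conditional binomial for ratios and Clopper-Pearson for shares, and cover counting error only. They hold no spread between animals, which 1 library a side cannot give. The ratio step was tested on simulated Poisson counts. These hold no spread between animals, libraries or cells, so the test covers the computation only. TMM factors came from edgeR 4.0.16 in R 4.3.3, other values from scipy 1.17.1 and pandas 2.3.3 with numpy 2.4.6 under python 3.11.15, and plots from matplotlib 3.10.9. Alternatives covered scaling, denominator, expression minimum, cell filters, zone parts and depth.

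The text names the 15 highest and 15 lowest ratios, the 5 genes of highest CPM in either library, Pck1, G6pc, Fbp1 and Pcx, and members of the lists described. Members and lists were chosen with earlier results of these data known.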

Additional observations from a re-analysis of the deposited data

How the results depend on the processing

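All 150 named genes past 2-fold kept their direction under every alternative, and 107 of them stayed past 2-fold in all. The other 43 fell within 2-fold under at least 1, most often in the periportal part (23 genes), at a minimum of 3000 UMIs (16) or with deep 24 h cells alone (14). Beside 225 higher and 207 lower genes, a minimum of 10 CPM gave 377 and 420, a minimum of 200 CPM 99 and 83, and no minimum 1294 and 1660, since fewer or more genes were counted. Counting in the barcodes of under 2% mitochondrial UMIs (0 to 30%) gave 473 higher and 366 lower genes, and a limit of 15% gave 386 higher. The pericentral part of cells alone gave 355 lower genes and cells thinned to 1000 UMIs 313. The causes of these last shifts were not tested. Of 32 list medians 24 kept their side of 0 under each alternative that gave a value, which was all 20 except for the immediate-early list, with 0 members at a minimum of 200 CPM. The 8 that crossed it under at least 1 were those of clock genes (-0.50, and 0.48 and 0.28 with a minimum of 10 CPM and with none), heat shock proteins (0.19, and -0.24 and -0.31 likewise), iron handling (0.20, and -0.05 with no minimum), drug metabolism (0.26, and -0.10 with low-mitochondrial barcodes), fasting regulators, glucocorticoid receptor targets, the integrated stress response and proteasome subunits. Fbp1 crossed it in the periportal part (0.10 and -0.06). The 24 h cells of 8000 or more UMIs, a setting chosen after seeing the data, gave 222 and 187. No paired analysis was possible because each time point was 1 library, and for the same reason no replicate could be left out.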

Other observations

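Genes with sex-biased expression in mouse liver, picked after their values had been seen and hence with no test, stood apart between the libraries in part. Male-predominant Hsd3b5, Slco1a1, Cyp4a12a, Cyp7b1 and Mup20 had log2 ratios of -7.89, -3.21, -2.73, -1.65 and -1.22. Cyp2d9 of the drug metabolism list, also male-predominant, was not among the lower genes. Female-predominant Cyp2b9, under the minimum in both libraries, stood at 0.132, 0.549, 0, 0.119 and 13.7 CPM over the 5 libraries, from 4 UMIs at 16 h and 515 at 24 h. Cyp2a4, also female-predominant, did not follow, with 5 UMIs at 16 h and 0 at 24 h. All animals were labelled male. Igf1, a growth hormone target, measured 1264 and 1621 CPM and the growth hormone receptor Ghr 526 and 517.

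Among list members under 50 CPM in both libraries, several stood far apart. Nr4a1, an orphan nuclear receptor of the immediate-early class, had 1.24, 8.96, 1.12, 38.3 and 1.12 CPM. The glutamate transporter Slc1a2, found next to the central vein, had 11.7, 22.1, 3.58, 28.5 and 0.665 CPM, and the inducible heat shock gene Hspa1b 21.8, 2.06, 4.08, 24.6 and 1.65 CPM. Inhba, an activin subunit, stood at 116, 7.84, 7.89, 24.8 and 9.61 CPM. Such low levels were outside the comparison's minimum and are given as values.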
